A study of Homo sapiens with 16 samples.

Results

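The 33 genes described here encode the factors that make the 3′ ends of mRNAs and end transcription by RNA polymerase II. They were listed by name, for their roles in cleavage, polyadenylation, termination or RNA restriction, and the rule itself uses no measured value. The choice was made with earlier results of these data known, so it is not independent of them. Each of the 33 matched 1 of the 60448 gene identifiers in the table, and all 33 were among the 17198 tested, whose mean reached 0.5 FPKM (fragments per kilobase of exon, scaled to the size of the library). RNA was sequenced from 16 libraries of A549, an established human lung adenocarcinoma line, and of A549/cDDP, its cisplatin-resistant derivative, which was maintained in cisplatin. Untransfected A549 and untransfected A549/cDDP were each measured after 24 h in cisplatin, at a concentration labelled 15 mM, or in its solvent. A549/cDDP was also transfected with 12 pmol of gapmer, either a control or one aimed at SCAT7, a long noncoding RNA. A gapmer is a short oligonucleotide through which RNase H cuts a chosen RNA. Transfected cells spent 48 h after transfection in culture and the final 24 h of it in cisplatin or solvent. Each of the 8 groups holds 2 libraries, and the labels do not say whether these were separate cultures, so a p-value reflects no more than the spread of these libraries.

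Depth recovered from the low values was 3.14e+07 to 4.31e+07 fragments per library. Of this range the 4 SCAT7 gapmer libraries took 3.14e+07 to 3.34e+07 fragments and the 4 control gapmer libraries 4.23e+07 to 4.31e+07. Between 17820 and 18489 genes reached 0.5 FPKM in the SCAT7 gapmer libraries, against 15543 to 17011 in the other libraries. The epithelial keratins KRT8 and KRT18 were at 1547 to 2782 and 599 to 1437 FPKM over the 16 libraries. Of the other markers of lung adenocarcinoma looked at, KRT19 was at 90.5 to 250.8 FPKM, NAPSA at 0.792 to 3.19, and SFTPB and SFTPC at or below 0.194. The libraries of the lines did not overlap for NKX2-1, CDH1, EPCAM and KRT8, nor for CDKN2A and COL1A1 below. How many of all genes separate so was not counted. KRT8 was at 2320 to 2782 FPKM in A549 and 1547 to 2180 in A549/cDDP. NKX2-1 was at 0 in the 4 A549 libraries and at 0.695 to 1.34 in the 12 of A549/cDDP, CDH1 at 14.5 and 14.5 in A549 and 3.02 and 2.83 in A549/cDDP in solvent, and EPCAM there at 3.81 and 3.15 in A549 and 0.953 and 1.01 in A549/cDDP. The part of these differences in the results was not tested. CDKN2A and CDKN2B, which are deleted in A549, were at or below 0.399. CDKN2A was at 0.168 to 0.399 in the A549 libraries and at or below 0.0374 in those of A549/cDDP. Of 10 markers of immune, endothelial and stromal cells, COL1A1 alone exceeded 1 FPKM (7.20 to 52.7). It was at 7.20 to 9.80 in A549 and 25.9 to 52.7 in A549/cDDP. ELF3-AS1, the gene that RefSeq also calls SCAT7, stood in solvent at 2.56 and 3.57 FPKM under the control gapmer and 0.594 and 0.837 under the SCAT7 gapmer, a log2 change of -1.54 (limma adjusted p = 7.5e-06). In cisplatin it was at 3.73 and 3.23 with the control and 1.69 and 2.18 with the SCAT7 gapmer (-0.71, limma adjusted p = 0.00355).

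Almost every mRNA gets its 3′ end when the growing transcript is cut and a poly(A) tail is added at the cut. The cleavage and polyadenylation specificity factor reads the signal AAUAAA in the RNA, written with T for U in the sequences here, and holds the endonuclease. The cleavage stimulation factor binds the stretch past the cut, cleavage factor I binds ahead of the signal, and cleavage factor II links the cut to the release of the polymerase. XRN2 then degrades the RNA still attached to the polymerase from its free end. The mRNAs of replication-dependent histones are the exception, since they are cut beside a stem-loop and carry no tail.

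Promoters are shown first for CLP1 and CSTF3, the members with the largest rises in A549 in cisplatin, and for PCF11 and RBBP6, those with the largest rises under the SCAT7 gapmer. They are RefSeq's on GRCh38.p14 and run from upstream of the start of transcription to shortly after it, 5′ to 3′ along the gene. Capitals mark TGACG on either strand (CGTCA on the other) and the full palindrome TGACGTCA that holds it on both, the core of the element bound by CREB and ATF proteins. CLP1 lies at chr11:57657512-57657811 on the plus strand and CSTF3 at chr11:33161431-33161730 on the minus strand. PCF11 lies at chr11:83156881-83157180 and RBBP6 at chr16:24539316-24539615, both on the plus strand.
CLP1: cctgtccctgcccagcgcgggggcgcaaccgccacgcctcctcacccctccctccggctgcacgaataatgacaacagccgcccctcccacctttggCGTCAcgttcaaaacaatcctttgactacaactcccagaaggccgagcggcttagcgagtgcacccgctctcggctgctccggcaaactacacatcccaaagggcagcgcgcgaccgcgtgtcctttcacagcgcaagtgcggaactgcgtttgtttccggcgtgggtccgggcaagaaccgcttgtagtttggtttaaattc
CSTF3: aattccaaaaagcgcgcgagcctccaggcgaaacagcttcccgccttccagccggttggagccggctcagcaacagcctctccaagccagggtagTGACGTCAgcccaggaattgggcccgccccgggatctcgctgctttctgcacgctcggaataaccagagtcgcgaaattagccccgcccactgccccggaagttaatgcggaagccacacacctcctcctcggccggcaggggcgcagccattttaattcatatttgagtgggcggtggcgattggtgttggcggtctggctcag
PCF11: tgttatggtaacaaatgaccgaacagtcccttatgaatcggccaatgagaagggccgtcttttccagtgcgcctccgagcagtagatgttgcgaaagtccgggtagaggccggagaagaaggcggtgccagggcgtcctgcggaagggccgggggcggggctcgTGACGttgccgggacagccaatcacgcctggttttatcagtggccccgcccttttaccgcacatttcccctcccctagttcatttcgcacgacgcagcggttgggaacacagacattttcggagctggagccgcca
RBBP6: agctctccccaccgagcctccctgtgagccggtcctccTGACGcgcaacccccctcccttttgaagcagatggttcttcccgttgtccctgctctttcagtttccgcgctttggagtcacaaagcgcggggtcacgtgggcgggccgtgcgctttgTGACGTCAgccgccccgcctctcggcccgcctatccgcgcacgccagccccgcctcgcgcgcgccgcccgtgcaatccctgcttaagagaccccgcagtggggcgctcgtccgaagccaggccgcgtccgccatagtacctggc
The window was found for 30 of the 33 members. Shares are counted by gene, with a match in any of its windows. TGACG stood in 18 of these 30 (60%), against 28.4% of 27305 genes with a promoter in RefSeq and 39.7% of the 11429 tested ones. TGACGTCA stood in 7 of the 30 (23.3%), against 2.25% of all these genes and 3.77% of the tested ones. The 7 were CSTF1, CSTF3, RBBP6, RPRD1A, WDR82, XRN2 and ZC3H4. Of these 7 genes, cisplatin in A549 raised CSTF3, lowered CSTF1, WDR82 and XRN2, and left RBBP6, RPRD1A and ZC3H4 short of the threshold. The part of the motif in the changes was not tested. The p53 half-site was found in the SRRT promoter alone (3.33% of the 30), against 8.06% of all genes with a promoter and 7.62% of the tested ones. Also sought were GGGCGG (70% of the 30, 75.3% of tested genes), CCAAT (43.3%, 42.5%) and TATAAA (3.33%, 8.59%). A match is a run of letters, not a shown binding site.

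The genes that run the poly(A) machinery carry its signal themselves. In the last 50 bases of the principal GENCODE 29 transcript, AATAAA stood in 25 of the 33 members (75.8%), against 59.7% of 19568 coding genes and 63.2% of the 12944 of them that were tested. CPSF4 and ZC3H4 had the variant ATTAAA, and RPRD2, WDR82, CPSF1, NCBP1, PCF11 and CDK12 had neither. Windows of 30 bases on GRCh38, 5′ to 3′ along the transcript with the signal in capitals, show it for the endonuclease CPSF3, the reader NUDT21, the paired subunits CSTF2 and CSTF3, and CLP1, RBBP6 and the poly(A) polymerase PAPOLA. They lie at chr2:9473062-9473091 (plus strand), chr16:56429138-56429167 (minus), chrX:100840889-100840918 (plus), chr11:33084586-33084615 (minus), chr11:57661830-57661859 (plus), chr16:24572824-24572853 (plus) and chr14:96567079-96567108 (plus), in that order.
CPSF3: tttgttacctaaAATAAAatgcattcgttt
NUDT21: tattgtcatttcAATAAAaaatatttgaaa
CSTF2: tctgtgacttgaAATAAActttgaacacaa
CSTF3: agtcctttaaaaAATAAAaggattcagaaa
CLP1: aaaaatcattttAATAAAtatttttgccat
RBBP6: ctttttgattacAATAAAagttttcagtaa
PAPOLA: cattgaaaacacAATAAAaaaaaaacagca
Between the last base of the signal and the end of the transcript lie 12 bases in CSTF2 and 22 in CPSF3 and RBBP6.

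By level the members run from PAPOLG, a minor poly(A) polymerase, with a mean of 6.87 FPKM over the 16 libraries, to PAPOLA, the main poly(A) polymerase, with 206 FPKM. They rank between percentile 43.9 and 96.9 of the tested genes. NUDT21, SRRT, CPSF7, CPSF1 and CSTF3 follow PAPOLA at means of 132, 114, 110.3, 109 and 100.02 FPKM, and RPRD2, CSTF2T and FIP1L1 stand above PAPOLG at 8.33, 10.4 and 13.0. CPSF7 and CPSF1 are neighbours in this order whose ranges overlap (95.6 to 131 and 94.7 to 117 FPKM). From the recovered depth, about 866 to 2280 reads a library lie behind CSTF2, the least covered member, and about 78100 to 114000 behind PAPOLA. PAPOLA was also the steadiest, with its highest library 1.19 times its lowest. The ratio of highest to lowest was 3.21 for CLP1, 2.70 for PCF11, 2.42 for RBBP6, 2.27 for CSTF2, 2.10 for CSTF3 and 2.08 for CPSF3, and under 2 for the other 27.

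**Figure D1:**
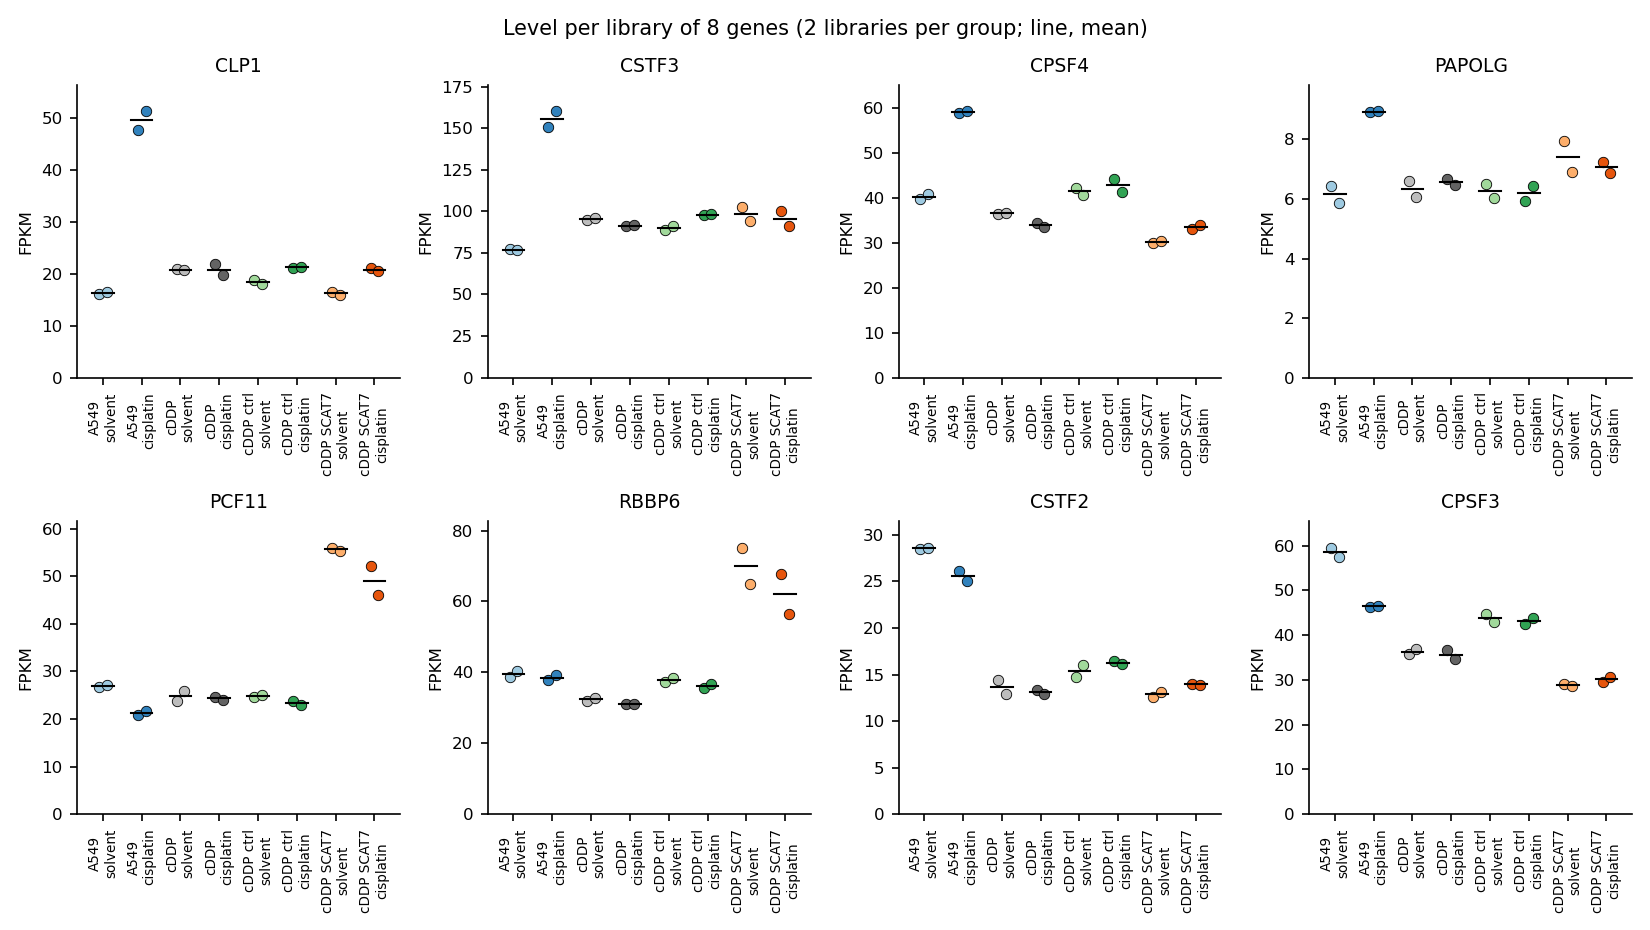
Level in FPKM (vertical axis, from 0) of 8 genes in the 16 libraries, with 2 points per group and a line at their mean. CLP1, CSTF3, CPSF4 and PAPOLG are highest in A549 in cisplatin, PCF11 and RBBP6 in the SCAT7 gapmer libraries, and CSTF2 and CPSF3 in A549 in solvent (28.5 and 28.6, and 59.5 and 57.5 FPKM).

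Changes below are differences of log2(FPKM + 0.5) in one limma model of all 16 libraries. Rose, fell, higher and lower mean a p under 0.05 after Benjamini-Hochberg adjustment across the 17198 genes. In RNA from whole cultures a change in the share of cells that hold a transcript and a change in its amount per cell cannot be told apart. FPKM gives levels relative to the rest of the transcriptome.

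The first comparison asks how these factors respond to cisplatin, which crosslinks DNA, in the parental line. CLP1 and CSTF3 rose most, CPSF4 and PAPOLG rose less, and SRRT, CPSF6, NCBP1, SSU72 and NUDT21 fell most. In all, 9 of the 33 rose and 15 fell. Since 60.4% of all genes tested passed in A549, 33.3% higher and 27.1% lower, the 27.3% of members that rose and the 45.5% that fell stand beside a large background. The members' median change was -0.09, against 0.06 over all genes. The complexes did not move as units: members rose and fell within the cleavage and polyadenylation specificity factor (2 and 2 of 6), cleavage factor I (1 and 2 of 3), the cleavage stimulation factor (1 and 3 of 4) and cleavage factor II (1 and 1 of 2).

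Cleavage factor II showed the widest split. CLP1, an RNA kinase that is also part of the tRNA splicing complex, was at 16.03 and 16.5 FPKM in A549 in solvent and at 47.7 and 51.3 in cisplatin. It rose by 1.58 in log2 units (SE 0.052, limma adjusted p = 9.4e-11). PCF11, the scaffold that joins the polymerase tail to the cleavage machinery, was at 26.7 and 27.1 in solvent and 20.8 and 21.8 in cisplatin and fell by 0.33 (SE 0.058, limma adjusted p = 0.000268). For both genes the 2 cisplatin libraries lay outside the solvent libraries, on opposite sides.

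In the cleavage stimulation factor, CSTF3, the scaffold subunit, was at 77.2 and 76.4 FPKM in solvent and 151 and 160.2 in cisplatin. It rose by 1.01 (SE 0.049, limma adjusted p = 2.84e-09), with both cisplatin libraries far above both solvent libraries. Its partners went the other way. CSTF1, the subunit with WD repeats, went from 26.1 and 25.1 to 20.3 and 19.5 and fell by 0.36 (limma adjusted p = 6.33e-05). CSTF2, the RNA-binding subunit, went from 28.5 and 28.6 to 26.1 and 25.1 (-0.16, limma adjusted p = 0.0331). Its near copy CSTF2T went from 11.4 and 10.9997 to 9.60 and 10.3 (-0.17, limma adjusted p = 0.0381). CSTF2 and CSTF2T are similar in sequence, so the split of their reads is uncertain. CSTF3 shares 8.69% of its exon bases with TCP11L1 and 5.83% with LINC00294, both on the opposite strand, and whether the counting used strand is not given in the sources used here. TCP11L1, singled out after its values were seen, rose beside it from 16.9 and 17.8 to 43.6 and 44.2 FPKM, and within the shared exons the reads of both cannot be told apart. CLP1 shares 9.60% with YPEL4, whose mean was at most 0.138 FPKM in the groups looked at.

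Among the cleavage and polyadenylation specificity factor genes, CPSF4, whose protein contacts the AAUAAA signal, was at 39.8 and 40.8 FPKM in solvent and 59 and 59.3 in cisplatin, a rise of 0.55 (SE 0.039, limma adjusted p = 9.27e-08). WDR33, which contacts the signal together with CPSF4, went from 24.6 and 25.1 to 20.5 and 19.6 and fell by 0.30 (limma adjusted p = 0.000109). CPSF3, the endonuclease that makes the cut, went from 59.5 and 57.5 to 46.2 and 46.6 and fell by 0.33 (limma adjusted p = 1.41e-05). Thus 2 proteins that read the same signal were encoded by genes that moved apart. WDR33 shares 25.6% of its exon bases with the opposite-strand gene SFT2D3, which fell beside it from a mean of 4.14 to 2.86 FPKM (-0.47). SFT2D3 was also lower in A549/cDDP in solvent (-0.61) and with the SCAT7 gapmer in solvent (-0.29), where WDR33 rose. Within the shared exons the reads of both cannot be told apart, and the part of the overlap was not tested. CPSF2, the partner of CPSF3 without nuclease activity, went from 39.4 and 41.5 to 43.7 and 43.7 (0.11, limma adjusted p = 0.0189). CPSF1, the scaffold, was at 116 and 113 in solvent and 117 and 117 in cisplatin, and FIP1L1, which recruits the poly(A) polymerase, at 11.1 and 11.4 in solvent and 10.2 and 10.3 in cisplatin. Neither passed (limma adjusted p = 0.532 and 0.227).

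Cleavage factor I binds UGUA ahead of the signal and helps to set which poly(A) site is used. NUDT21, its UGUA-binding subunit, was at 139 and 141 FPKM in solvent and 105 and 108 in cisplatin and fell by 0.39 (limma adjusted p = 1.66e-06). CPSF6, a larger subunit, went from 61.99 and 63.8 to 46.1 and 44.7 and fell by 0.47 (SE 0.042, limma adjusted p = 8.47e-07). CPSF7, the alternative larger subunit, went from 116 and 119.8 to 131 and 129.7 and rose by 0.14 (limma adjusted p = 0.0013). The cisplatin libraries of NUDT21 and CPSF6 lay below their solvent libraries, and those of CPSF7 above.

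The poly(A) polymerases also moved in opposite directions. PAPOLA went from 230.4 and 230.2 to 193 and 199 FPKM and fell by 0.23 (limma adjusted p = 5.92e-05), and PAPOLG went from 6.45 and 5.86 to 8.91 and 8.95 and rose by 0.50 (limma adjusted p = 0.000153). PAPOLA stayed the far more abundant of them per length, at 35.8 and 39.3 times PAPOLG in solvent and 21.7 and 22.2 times in cisplatin. PABPN1, the nuclear poly(A)-binding protein, went from 72.3 and 69.1 to 61.04 and 60.5 (-0.22, limma adjusted p = 0.00999). SSU72, a phosphatase of the polymerase tail, went from 41.2 and 42.5 to 30.6 and 32.1 and fell by 0.41 (limma adjusted p = 5.66e-06). The scaffold SYMPK (77.1 and 76.2, then 81.3 and 83.6) and RBBP6, a ubiquitin ligase that activates the endonuclease (38.8 and 40.3, then 37.7 and 39.3), did not pass (limma adjusted p = 0.0662 and 0.706).

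Among the termination factors, XRN2 went from 61.1 and 62.1 to 52.3 and 53.3 FPKM and fell by 0.22 (limma adjusted p = 0.000108). SCAF8, which with SCAF4 holds back the use of early poly(A) sites, went from 13.5 and 13.3 to 17.03 and 16.8 and rose by 0.33 (limma adjusted p = 0.00015). SCAF4 itself was at 14.96 and 14.6 in solvent and 15.1 and 14.5 in cisplatin (0.00, 95% interval -0.10 to 0.11). RPRD1B, which binds the polymerase tail, went from 42.5 and 42.4 to 50.9 and 47.9 and rose by 0.22 (limma adjusted p = 0.00113), while its relatives RPRD1A (-0.09) and RPRD2 (0.08) did not pass. PPP1R10, known as PNUTS, targets protein phosphatase 1 to the polymerase and went from 74.7 and 73.4 to 97.8 and 94.4, a rise of 0.37 (limma adjusted p = 3.48e-06). WDR82, its partner and a part of the restrictor, fell from 58.1 and 56.1 to 45.8 and 47.5, and ZC3H4, the other restrictor subunit, was at 22.9 and 22.5 in solvent and 21.7 and 22.1 in cisplatin and did not pass (limma adjusted p = 8.84e-05 and 0.459).

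The cap-linked factors fell. SRRT, known as ARS2, joins the cap-binding complex to RNA decay and 3′ end formation. It was at 158 and 161 FPKM in solvent and 111 and 115 in cisplatin and fell by 0.49 (SE 0.039, limma adjusted p = 2.9e-07). NCBP1, the large subunit of the cap-binding complex, went from 80.8 and 83.1 to 61.04 and 61.2 and fell by 0.42 (limma adjusted p = 7.17e-05). CDK12, a kinase of the polymerase tail, was at 60.8 and 61.5 in solvent and 65.4 and 65.99 in cisplatin and did not pass (limma adjusted p = 0.0659). Of the 24 calls in A549, 20 held in each fit without 1 of the libraries. Those of CPSF2, CSTF2, CSTF2T and PABPN1 did not, with a highest limma adjusted p between 0.0726 and 0.216.

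The second comparison asks whether the same drug moves these genes in the resistant line. None of the 33 passed in A549/cDDP, where 8.1% of all genes did (3.55% higher and 4.55% lower). At an unadjusted p under 0.05 limma gave 2 members, against 22.1% of all genes, and the smallest adjusted p was 0.0521, for PAPOLA. PAPOLA went from 213 and 224 to 205 and 198 FPKM (-0.12), and it passed as lower under quantile normalization and in the fit restricted to means of 5 FPKM or more. The members' changes ran from -0.12 to 0.09. CLP1 was at 20.97 and 20.6 FPKM in solvent and 21.8 and 19.7 in cisplatin (95% interval of the log2 change -0.12 to 0.11), and CSTF3 at 94.8 and 95.8 in solvent and 90.9 and 91.7 in cisplatin (-0.17 to 0.05). Both intervals lie far below the rises in A549.

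**Figure D2:**
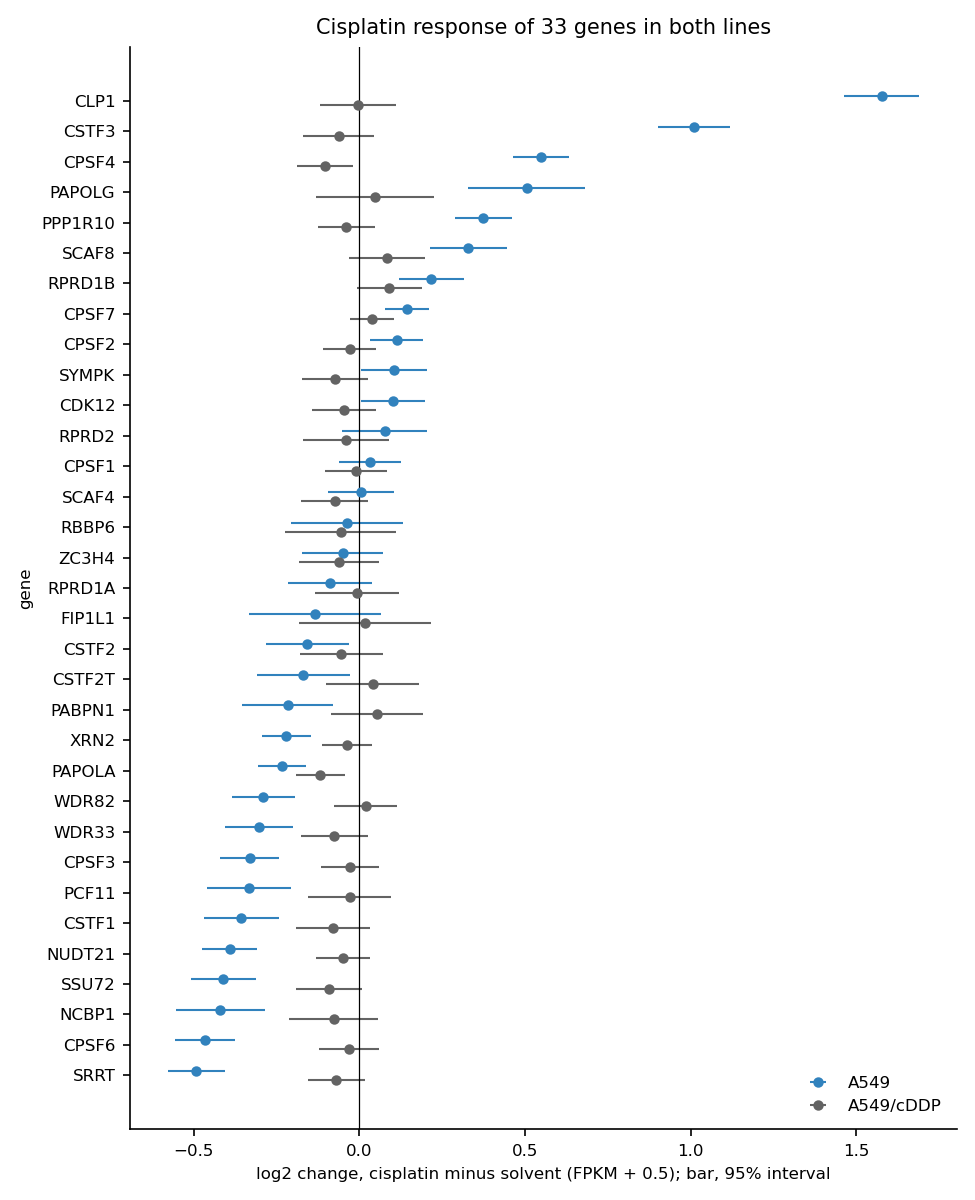
Log2 change with cisplatin (horizontal axis, 95% interval as bars) of the 33 genes in A549 (blue) and in A549/cDDP (grey), ordered by the change in A549. The A549 values run from -0.49 (SRRT) to 1.58 (CLP1), and those of A549/cDDP from -0.12 to 0.09.

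The difference between both responses, A549/cDDP minus A549, was tested directly. It passed for 20 of the 33 members, 12 above and 8 below, and for 47% of all genes (21.5% above and 25.6% below). The split of the members was 14 and 5 with median ratio scaling, whereas the shares of all genes are without it. The 8 with a response further down in A549/cDDP were CLP1 (-1.58, SE 0.074, limma adjusted p = 7.52e-09), CSTF3 (-1.07, limma adjusted p = 1.11e-07), CPSF4 (-0.65), PAPOLG (-0.46), PPP1R10 (-0.41), SCAF8 (-0.25), SYMPK (-0.18) and CPSF2 (-0.14). The 12 with a response further up in A549/cDDP were all among the 15 that fell in A549: CPSF6 (0.43), SRRT (0.42), NCBP1 and NUDT21 (0.34 each), SSU72 (0.32), WDR82 (0.31), PCF11 and CPSF3 (0.30 each), CSTF1 (0.28), PABPN1 (0.27), WDR33 (0.23) and XRN2 (0.18). The other 3 that fell there, CSTF2, CSTF2T and PAPOLA, did not pass for the difference (limma adjusted p = 0.335, 0.0796 and 0.0643). SYMPK alone of the 20 had passed in neither line. In A549/cDDP, CPSF4 was at 36.4 and 36.7 FPKM in solvent and 34.4 and 33.6 in cisplatin, and PAPOLG at 6.62 and 6.08 in solvent and 6.69 and 6.46 in cisplatin. SRRT was at 102 and 104 in solvent and 95.4 and 101 in cisplatin, CPSF6 at 54.03 and 50.3 in solvent and 52.3 and 49.7 in cisplatin, and NCBP1 at 74.7 and 72.7 in solvent and 69.1 and 70.5 in cisplatin. In each of these the solvent and cisplatin libraries of A549/cDDP lay closer together than those of A549. The calls of CPSF2, PABPN1, SCAF8, SYMPK and WDR33 ended in at least 1 fit without a library (highest limma adjusted p between 0.0552 and 0.164), and 15 held in each.

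Damage-induced genes were read beside these. CDKN1A, the cell cycle inhibitor p21, was at 84.1 and 84.3 FPKM in A549 and 579.9 and 573 in A549/cDDP in solvent, and was higher in A549/cDDP by 2.77 (limma adjusted p = 1.26e-14). MDM2, the ubiquitin ligase of p53, was at 56.8 and 58.6 in A549 and 291 and 290.0 in A549/cDDP and was higher by 2.32 (limma adjusted p = 2.45e-11). With cisplatin CDKN1A changed by 4.26 in A549 and 0.30 in A549/cDDP, and MDM2 by 3.802 and 0.07. The A549/cDDP change of MDM2 did not pass (limma adjusted p = 0.572).

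**Figure D3:**
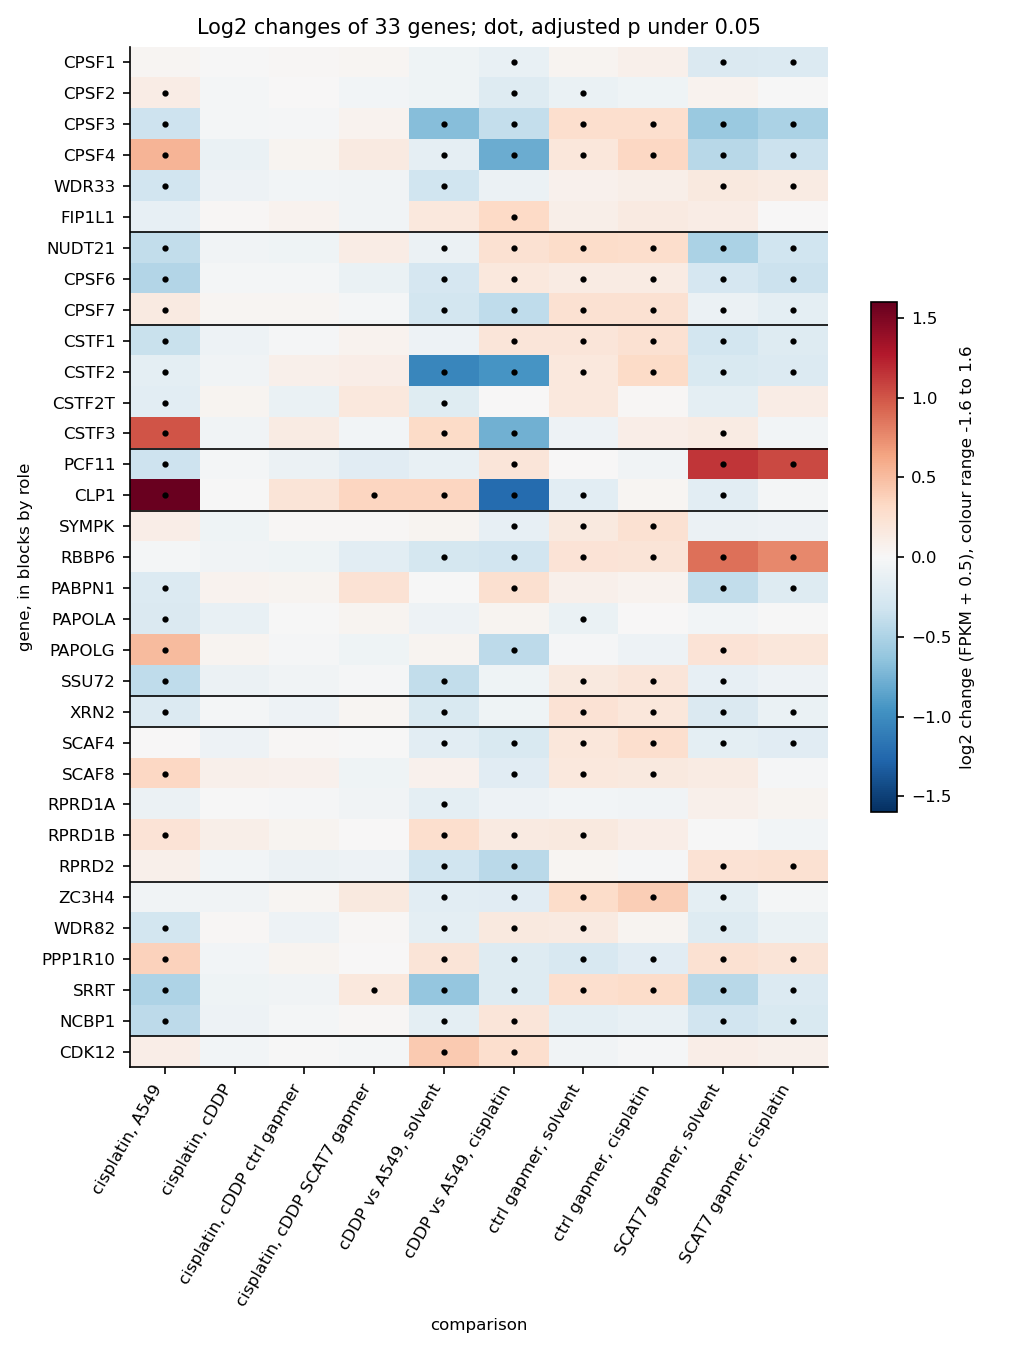
Log2 changes (colour, from -1.6 in blue to 1.6 in red) of the 33 genes (rows, in blocks by role) in 10 comparisons (columns), with a dot where the adjusted p is under 0.05. The A549 cisplatin column holds 24 dots and the A549/cDDP cisplatin column none, and the SCAT7 gapmer columns hold 24 and 18.

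The lines were then compared without drug. CSTF2, CPSF3 and SRRT were lower in A549/cDDP by the widest margins, and CDK12, CLP1 and CSTF3 higher. In solvent 18 of the 33 were lower and 5 higher, while 27.5% of all genes were lower and 42.7% higher (70.2% in all). The median over all genes was 0.15 and over the members -0.14. Median ratio scaling brought the all-gene median to 0.02, and then 25 members were lower and 4 higher. The shares of all genes given here are without this scaling, so the rescaled counts are not to be read against them. Relative to the all-gene median, 27 members lay below it and 6 above.

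CSTF2 was at 28.5 and 28.6 FPKM in A549 and 14.5 and 12.9 in A549/cDDP, lower by 1.04 (SE 0.058, limma adjusted p = 7.84e-09), or -1.19 relative to the all-gene median. CSTF2T was at 11.4 and 10.9997 in A549 and 9.93 and 9.48 in A549/cDDP (-0.20, limma adjusted p = 0.0147). The ratio of CSTF2 to its near copy was 2.49 and 2.60 in A549 and 1.46 and 1.36 in A549/cDDP, and it stayed between 1.20 and 1.62 in the other A549/cDDP libraries. CPSF3 was at 59.5 and 57.5 in A549 and 35.8 and 36.9 in A549/cDDP (-0.68, limma adjusted p = 1.45e-08, or -0.83 relative to the median). SRRT was at 158 and 161 in A549 and 102 and 104 in A549/cDDP (-0.62, limma adjusted p = 2.45e-08, or -0.78). For each of CSTF2, CPSF3 and SRRT all 12 A549/cDDP libraries, with or without drug and gapmer, lay below both A549 solvent libraries. The A549 cisplatin libraries also lay above all 12 for CSTF2 and CPSF3. For SRRT they (111 and 115 FPKM) lay below the control gapmer libraries (119 to 126). How many of all genes separate in this way was not counted.

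All 3 subunits of cleavage factor I were lower in A549/cDDP in solvent, CPSF7 by 0.30, CPSF6 by 0.27 and NUDT21 by 0.10. SSU72 was lower by 0.39, WDR33 by 0.32, RPRD2 by 0.32, RBBP6 by 0.28 and XRN2 by 0.25. RPRD2 was at 9.502 and 9.43 FPKM in A549 and 7.64 and 7.35 in A549/cDDP (limma adjusted p = 0.000392). The 5 higher genes were CDK12 (60.8 and 61.5 against 84.4 and 79.4, 0.42, limma adjusted p = 3.09e-06), CLP1 (0.35), CSTF3 (0.31), RPRD1B (0.27) and PPP1R10 (0.21). Under median ratio scaling PPP1R10 was no longer among them, and relative to the all-gene median it stood at 0.05. RPRD1B shares 7.15% of its exon bases with the opposite-strand gene TGM2, whose mean was 356 FPKM. TGM2 was itself higher in A549/cDDP in solvent, by 0.70 (limma adjusted p = 6e-08). Within the shared exons the reads of both cannot be told apart, and the part of the overlap in the RPRD1B call was not tested. Of the 23 calls, 15 held in each fit without 1 library. CPSF4, CSTF2T, NCBP1, NUDT21, RPRD1A, SCAF4, WDR82 and ZC3H4 did not, with a highest limma adjusted p between 0.0523 and 0.267.

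In cisplatin the lines were compared on separate libraries. There 17 of the 33 were lower in A549/cDDP and 10 higher, against 29.5% and 37% of all genes (66.5% in all). With median ratio scaling the member counts were 21 and 4, whereas the shares of all genes are without it. CLP1 was the furthest apart, at 47.7 and 51.3 FPKM in A549 and 21.8 and 19.7 in A549/cDDP (-1.24, limma adjusted p = 8.5e-10). CSTF2 (-0.94), CPSF4 (-0.79), CSTF3 (-0.76), RPRD2 (-0.43) and PAPOLG (-0.42) followed. The largest differences upward were FIP1L1 (10.2 and 10.3 against 12.8 and 12.8 FPKM, 0.31, limma adjusted p = 0.00913), CDK12 (0.27), PABPN1 (0.26), NUDT21 (0.24), NCBP1 (0.19) and CSTF1 (0.19). Of the members called in both settings, 9 were lower in both, 2 were higher in both and 7 were called in opposite directions. The same counts were not made over all genes. The 2 higher in both were CDK12 and RPRD1B, and CLP1, CSTF3 and PPP1R10 were higher in solvent and lower in cisplatin. The calls of CPSF1, CSTF1, NCBP1, PCF11, RPRD1B, SCAF8, SYMPK, WDR82 and ZC3H4 ended without 1 library (highest limma adjusted p between 0.055 and 0.315), and 18 held.

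Transfection of A549/cDDP with the control gapmer was itself accompanied by small rises. In solvent 17 of the 33 were higher than in untransfected cells and 4 lower (39.7% of all genes passed, 20.7% higher and 19% lower), and in cisplatin 15 were higher and 1 lower (42.4%, 23% and 19.4%). All 15 and the 1 were among the calls in solvent, and the share of all genes that do so was not counted. NUDT21 rose from 127 and 134 to 158 and 164 FPKM in solvent (0.30, limma adjusted p = 5.7e-05) and ZC3H4 from 19.9 and 20.4 to 24.7 and 24.96 (0.29, limma adjusted p = 0.0012). SRRT (0.27), CPSF3 (0.27), CPSF7 (0.24) and XRN2 (0.23) rose as well. PPP1R10 was the gene that fell in both settings, from 85.98 and 84.9 to 71.7 and 70.8 in solvent (-0.26, limma adjusted p = 0.000216) and by 0.18 in cisplatin. In cisplatin ZC3H4 (0.39), CPSF4 (34.4 and 33.6 to 44.2 and 41.3 FPKM, 0.33), CSTF2 (13.3 and 12.9 to 16.4 and 16.1, 0.30), SRRT (0.29), NUDT21 (0.28) and SCAF4 (0.27) rose most. The solvent count fell from 21 to 10 without replicate 2 of the untransfected or of the control gapmer libraries and to 13 without replicate 1 of the latter, and 8 of the 21 calls held in each fit without 1 library. In cisplatin 13 of 16 held. The split of the members was 10 higher and 6 lower under quantile normalization, whereas the shares of all genes are without it. These comparisons use the control gapmer libraries that the next ones also use, so they are not independent of them.

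The SCAT7 gapmer was compared with the control gapmer. PCF11 and RBBP6 rose by more than any other member, while CPSF3, NUDT21, CPSF4, SRRT and PABPN1 fell most. In solvent 7 of the 33 rose and 17 fell, when 55.8% of all genes passed (33.2% higher and 22.7% lower), and in cisplatin 5 rose and 13 fell (49.7%, 28.6% and 21.1%). Median ratio scaling gave 4 and 20 members in solvent, whereas the shares of all genes are without it. The 5 that rose in cisplatin and the 13 that fell were among the calls of the same direction in solvent, on separate libraries. The share of all genes whose calls are shared in this way was not counted. The members' median was -0.13 in solvent and -0.04 in cisplatin, against 0.06 and 0.04 over all genes.

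PCF11 was at 24.7 and 25.02 FPKM with the control gapmer in solvent and 56.02 and 55.3 with the SCAT7 gapmer, and at 23.8 and 22.9 with the control and 52.2 and 46.01 with the SCAT7 gapmer in cisplatin. It rose by 1.15 (SE 0.058, limma adjusted p = 1.06e-08) and 1.05 (SE 0.058, limma adjusted p = 4.16e-08). All 4 SCAT7 gapmer libraries lay above the other 12, among which PCF11 ran from 20.8 to 27.1. RBBP6 was at 37.3 and 38.4 with the control gapmer in solvent and 75.2 and 64.9 with the SCAT7 gapmer, and at 35.5 and 36.7 with the control and 67.8 and 56.6 with the SCAT7 gapmer in cisplatin. It rose by 0.88 (SE 0.077, limma adjusted p = 1.37e-06) and 0.77 (limma adjusted p = 6.45e-06). Replicate 1 of the SCAT7 gapmer was the higher for both genes in both settings, and the lower one still exceeded every other library. PCF11 shares 15.2% of its exon bases with the opposite-strand PCF11-AS1, whose mean in solvent was 1.14 FPKM under the control and 0.887 under the SCAT7 gapmer. CLP1, the partner of PCF11 in cleavage factor II, was at 18.8 and 18.03 with the control and 16.5 and 16.01 with the SCAT7 gapmer in solvent and fell by 0.17 (limma adjusted p = 0.013), and in cisplatin it was at 21.2 and 21.4 with the control and 21.1 and 20.5 with the SCAT7 gapmer (limma adjusted p = 0.626).

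**Figure D4:**
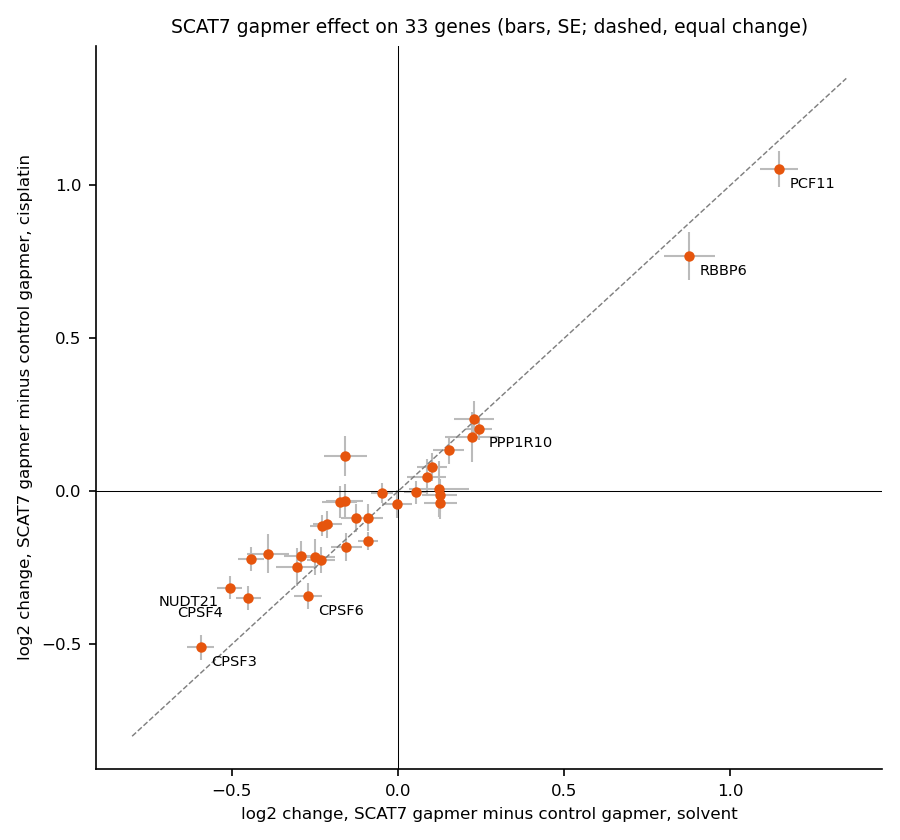
Log2 change with the SCAT7 gapmer against the control gapmer in solvent (horizontal axis) and in cisplatin (vertical axis) for the 33 genes, with standard errors as bars and a dashed line of equal change. PCF11 (1.15 and 1.05) and RBBP6 (0.88 and 0.77) stand apart at the upper right and CPSF3 (-0.59 and -0.51) at the lower left.

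The endonuclease gene fell most. CPSF3 was at 44.7 and 42.9 FPKM under the control gapmer and 29.1 and 28.6 under the SCAT7 gapmer in solvent, and at 42.4 and 43.7 with the control and 29.5 and 30.8 with the SCAT7 gapmer in cisplatin (limma adjusted p = 1.5e-07 and 9.5e-07). RBBP6, which activates this nuclease, and CPSF3 thus moved in opposite directions in both settings. CPSF4 went from 42.3 and 40.6 to 29.98 and 30.4 in solvent (-0.45, limma adjusted p = 1.15e-06) and changed by -0.35 in cisplatin. CPSF1 fell by 0.23 and 0.22, and WDR33 rose by 0.15 and 0.14. CPSF2 and FIP1L1 did not pass in either setting.

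All 3 subunits of cleavage factor I fell in both settings. NUDT21 went from 158 and 164 to 111 and 116 FPKM in solvent (-0.51, limma adjusted p = 3.27e-07) and from 153 and 154 to 124 and 123 in cisplatin (-0.31). CPSF6 went from 56.8 and 57.5 to 47.3 and 47.3 (-0.27) and from 55.2 and 56.5 to 43.003 and 44.995 (-0.34, limma adjusted p = 3.27e-05). CPSF7 changed by -0.09 and -0.16. In the cleavage stimulation factor CSTF1 (-0.29 and -0.21) and CSTF2 (-0.25 and -0.21) fell in both settings. CSTF3 passed in solvent (0.13) and not in cisplatin (-0.04), and its solvent call also ended with median ratio scaling (limma adjusted p = 0.201).

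SRRT went from 126 and 124 to 90.8 and 92.5 FPKM in solvent (-0.44, limma adjusted p = 1.53e-06) and changed by -0.22 in cisplatin, and NCBP1 went from 65.8 and 66.6 to 52.1 and 54.9 (-0.31) and changed by -0.25. PABPN1 went from 75.9 and 72.1 to 52.5 and 60.3 (-0.39, limma adjusted p = 0.000205) and by -0.20 in cisplatin. The read-through transcript BCL2L2-PABPN1, which shares 16.8% of the exon bases of PABPN1 on the same strand, went from a mean of 0.384 to 1.33 FPKM in solvent. XRN2 and SCAF4 also fell in both settings, and PPP1R10 (71.7 and 70.8 to 82.2 and 86.5 in solvent, 0.24) and RPRD2 (7.57 and 7.72 to 9.44 and 8.67, 0.23) rose in both. In untransfected A549/cDDP in solvent XRN2 was at 51.4 and 52.2 FPKM, SCAF4 at 13.4 and 12.9, and PPP1R10 at 85.98 and 84.9. With the SCAT7 gapmer in solvent XRN2 was at 51.9 and 51.9 and SCAF4 at 13.6 and 13.2, near those values. CPSF7 stood at 96.2 and 95.6 in the untransfected cells and 107 and 106 with the SCAT7 gapmer. CPSF3 (35.8 and 36.9) and NUDT21 (127 and 134) were untransfected above their SCAT7 gapmer libraries. PAPOLG rose in solvent from 6.501 and 6.05 to 7.96 and 6.89 (0.22, limma adjusted p = 0.0336). SYMPK, PAPOLA, CSTF2T, SCAF8, RPRD1A, RPRD1B and CDK12 passed in neither setting. In solvent 15 of 24 calls held in each fit without 1 library, and in cisplatin 13 of 18. The lost ones were CLP1, CPSF7, CSTF3, PAPOLG, RPRD2, SCAF4, SSU72, WDR33 and ZC3H4 in solvent (highest limma adjusted p between 0.061 and 0.344) and CSTF2, PABPN1, SCAF4, WDR33 and XRN2 in cisplatin (0.0529 to 0.255).

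Over the 33 members the solvent change with the SCAT7 gapmer correlated with exon length at a Spearman rho of 0.55 and with the span of the gene at 0.50, against 0.06 and 0.04 over 16944 genes. This describes genes of the same libraries, which are not independent. In cisplatin the values were 0.49 and 0.36 for the members and 0.04 and 0.04 for the 16944 genes. The SCAT7 gapmer libraries also had lower depths than the control gapmer libraries and the most genes at 0.5 FPKM or more of all libraries. CDKN1A and MDM2 rose in them in solvent (1.22 and 1.40) and in cisplatin (0.57 and 0.70). The part of these in the changes was not tested. The control gapmer had itself lowered CDKN1A and MDM2 against untransfected cells, in solvent (-1.11 and -0.79) and in cisplatin (-0.66 and -0.23). In solvent CDKN1A was at 580 and 573 FPKM untransfected, 266 and 269 with the control and 626 and 623 with the SCAT7 gapmer. MDM2 was there at 291 and 290, 165 and 171, and 484 and 411, in the same order.

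Cisplatin was also given after transfection. With the control gapmer 0 of 33 members passed in limma (2.53% of all genes did, 1.67% higher and 0.855% lower), and 3 did at an unadjusted p under 0.05 against 14.0% of all genes. With the SCAT7 gapmer 2 rose (4.18% of all genes passed, 2.92% higher and 1.26% lower): CLP1 from 16.5 and 16.01 to 21.1 and 20.5 FPKM (0.35, SE 0.052, limma adjusted p = 0.0112) and SRRT from 90.8 and 92.5 to 107 and 99.6 (0.17, limma adjusted p = 0.0387). CLP1 with the control gapmer went from 18.8 and 18.03 to 21.2 and 21.4 (0.21, limma adjusted p = 0.0667). The cisplatin libraries of CLP1 lay above the solvent libraries with either gapmer. Without replicate 1 of the SCAT7 gapmer in solvent neither gene passed (CLP1 limma adjusted p = 0.0697, SRRT 0.183), and without replicate 2 of the SCAT7 gapmer in cisplatin 4 members did. SRRT also did not pass in the fits without the other SCAT7 gapmer solvent library (limma adjusted p = 0.0723) or without replicate 1 of the SCAT7 gapmer in cisplatin (0.152). For the difference of the gapmer effect between solvent and cisplatin no member passed in limma (0 of 33, with 0.93% of all genes called, 0.488% higher and 0.442% lower), 5 members had an unadjusted p under 0.05 against 13.7% of all genes, and the smallest adjusted p was 0.0982, for SRRT. Without replicate 2 of the SCAT7 gapmer in cisplatin SRRT passed.

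Other genes of transcription and RNA ends were taken from lists by function. Their counts are read beside the shares of all genes: 33.3% higher and 27.1% lower with cisplatin in A549 (median 0.06), 33.2% and 22.7% with the SCAT7 gapmer in solvent (0.06), and 28.6% and 21.1% with it in cisplatin (0.04). Of 15 Integrator genes, which encode the complex that cuts snRNAs and short nascent transcripts, 3 rose and 5 fell with cisplatin in A549 (20% and 33.3% of the list, median -0.10) and none passed in A549/cDDP (8.1% of all genes). With the SCAT7 gapmer in solvent 4 rose and 5 fell (26.7% and 33.3%, median -0.05). INTS7 was the furthest apart between the lines, at 26.02 and 25.8 FPKM in A549 and 14.2 and 14.3 in A549/cDDP in solvent (-0.84, limma adjusted p = 4.14e-09), and INTS6 rose with the SCAT7 gapmer from 15.2 and 16.02 to 24.6 and 22.3 (0.57, limma adjusted p = 3.26e-06).

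Of 26 genes of polymerase tail kinases and elongation factors, 10 rose and 6 fell with cisplatin in A549 (38.5% and 23.1%, median 0.04), near the shares of all genes. CCNK, the cyclin that activates CDK12, went from 44.4 and 46.2 FPKM in solvent to 155 and 155 in cisplatin in A549 and rose by 1.76 (SE 0.036, limma adjusted p = 1.74e-12). In A549/cDDP it was at 67.6 and 67.2 in solvent and 71.2 and 73.6 in cisplatin, and the difference of responses was -1.66 (limma adjusted p = 2.21e-10). CDK12 itself, given above, changed by 0.10 in A549. SSRP1, a subunit of the histone chaperone FACT, fell in A549 with cisplatin (-0.68) and with the SCAT7 gapmer in solvent (-0.78) and in cisplatin (-0.63).

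Of 22 genes of the nuclear exosome, which degrades RNA from its 3′ end, 5 rose and 10 fell with cisplatin in A549 (22.7% and 45.5%, median -0.03). With the SCAT7 gapmer 6 rose and 11 fell (27.3% and 50%) in solvent (median -0.11) and again in cisplatin (-0.11). The core genes EXOSC8 and EXOSC9 fell in all 3. EXOSC9 went from 35.4 and 37.8 FPKM to 17.6 and 19.02 with cisplatin in A549 (-0.98, limma adjusted p = 1.07e-07) and from 33.5 and 30.9 to 18.4 and 18.9 with the SCAT7 gapmer in solvent (-0.77, limma adjusted p = 1.91e-06). Untransfected A549/cDDP in solvent had EXOSC9 at 18.4 and 19.2 FPKM, near the SCAT7 gapmer libraries. The control gapmer in solvent had itself raised EXOSC8 and EXOSC9 over untransfected cells, by 0.56 and 0.76. Of 13 genes of phosphatase 1 partners and tail phosphatases, 2 rose and 7 fell with cisplatin in A549 (15.4% and 53.8%, median -0.10), CTDSPL2 from 19.9 and 19.9 to 10.8 and 10.5 (-0.87). Of 21 genes of cytoplasmic poly(A) binding and deadenylation, 7 rose and 7 fell (33.3% each, median -0.003), near the shares of all genes, and BTG1, an antiproliferative gene that recruits deadenylases, rose both there (0.78) and with the SCAT7 gapmer in solvent (41.1 and 45.3 to 82.1 and 71.7 FPKM, 0.82).

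A further list held genes for the 3′ ends of histone mRNAs, some of them shared with other machineries. Of its 12 genes, 7 fell and none rose with cisplatin in A549 (58.3% lower, median -0.24). In A549/cDDP in solvent 10 were lower and none higher (83.3%, median -0.58), against 27.5% lower and 42.7% higher of all genes (median 0.15). With the control gapmer in solvent 8 rose and 1 fell (66.7% and 8.33%, median 0.37), against 20.7% and 19% of all genes (median -0.01), and with the SCAT7 gapmer in solvent 1 rose and 9 fell (8.33% and 75%, median -0.41). SLBP, which binds the histone stem-loop, was at 62.2 and 62.5 FPKM in A549 in solvent, 25.2 and 24.9 in A549 in cisplatin and 34.5 and 31.4 in A549/cDDP in solvent. It was at 56.7 and 56.5 with the control gapmer and 28.8 and 31.2 under the SCAT7 gapmer in solvent (-0.91, limma adjusted p = 1.01e-07). SNRPB and SNRPE, Sm proteins shared with the spliceosome, fell with the SCAT7 gapmer by 0.73 and 0.96.

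Transcripts of replication-dependent histone genes, which normally have no tail for oligo(dT) to bind, were measured in the same libraries. Only 31 of the 71 passed the mean of 0.5 FPKM over all libraries. Their summed level over all 71 was 113 and 113 FPKM in A549 in solvent, 388 and 406 in A549/cDDP in solvent, 327 and 341 with the control gapmer and 654 and 603 under the SCAT7 gapmer. Since the 31 could pass through the groups where they are high, their counts of calls are left out and the sums carry the description. With cisplatin in A549, where SLBP fell, the sum was 138 and 137 FPKM. H1-2, a linker histone gene, was at 14.6 and 13.2 FPKM in A549, 79.2 and 78.8 in A549/cDDP, 49.97 and 50.9 with the control gapmer and 116 and 112 under the SCAT7 gapmer, all in solvent.

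**Figure D5:**
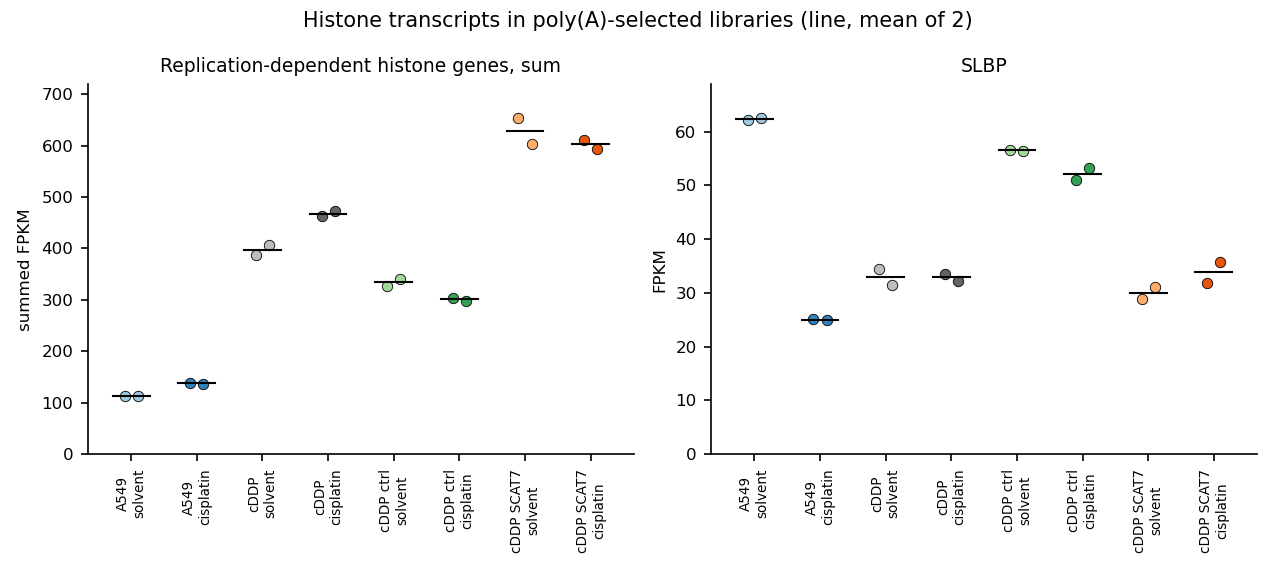
Summed FPKM of the replication-dependent histone genes (left) and FPKM of SLBP (right) in the 16 libraries, with 2 points per group and a line at their mean. The sum is lowest in A549 in solvent (113 and 113) and highest in the SCAT7 gapmer libraries (594 to 654), and SLBP is lowest in A549 in cisplatin.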

How the data were processed

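The authors deposited FPKM values per gene and library, 1 table of 60448 identifiers by 16 libraries. Reads were aligned with TopHat2 and counted with HTSeq 0.6.1 on hg38, per the submitters' processing notes, and libraries were made from mRNA selected on oligo(dT), per the labels' protocols. The annotation release and the strand setting are not given in the sources used here. Because no counts were used, the test was limma 3.58.1 (R 4.3.3) on log2(FPKM + 0.5) for the 17198 genes whose mean over all libraries reached 0.5 FPKM, with 8 group means, 8 residual degrees of freedom, a trended prior, two-sided tests and Benjamini-Hochberg adjustment at 0.05 in each of 12 comparisons. Groups came from the labels. An exact permutation test of 2 against 2 libraries cannot go below 0.333, so none was used. Depth was recovered from the steps of low values with GENCODE 29 exon lengths, which matched 56868 identifiers, so read numbers are approximate. Symbols and hg38 positions come from GENCODE 29 and promoters from RefSeq (GRCh38.p14).

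The members and the lists were chosen with earlier results of these data known. All 33 members are accounted for. Full values are given for up to 6 members per direction and comparison with the largest changes among those that passed. For members whose cisplatin call differs between the lines where the difference passed, the A549 values are given. Of these, CLP1, CSTF3, CPSF4, PAPOLG, SRRT, CPSF6 and NCBP1 also have their A549/cDDP values in solvent and cisplatin. From each related list up to 4 called genes per comparison with the largest changes could be named. CDKN1A, MDM2 and ELF3-AS1 served as checks. Tested on simulated data of 17198 genes, the fit found, for cisplatin in A549, 79% of the genes given a log2 change of 0.5 and 99% of those given 1 (5.8% of its calls were false), and for the SCAT7 gapmer in solvent 76% and 99% (4.4%). Each simulation changed 200 genes, with normal noise from a smoothed trend, whereas 60.4% and 55.8% of all genes passed in the data. These rates therefore need not hold for the comparisons. Alternatives were pseudocounts of 0.1 and 1, no filter, a mean of at least 5 FPKM, median ratio scaling, quantile normalization, a fit of the compared groups alone, a prior without trend, a replicate block, and each library left out.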

Additional observations from a re-analysis of the deposited data

Results flagged for a closer look

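The response to cisplatin differed between the lines for 20 of the 33 members, by the limma test of the difference itself (A549/cDDP response minus A549 response). These 20 are listed because the 2 lines answer the same contrast differently. The difference was -1.58 for CLP1, -1.07 for CSTF3, -0.65 for CPSF4, -0.46 for PAPOLG, -0.41 for PPP1R10, -0.25 for SCAF8, -0.18 for SYMPK and -0.14 for CPSF2. It was 0.18 for XRN2, 0.23 for WDR33, 0.27 for PABPN1, 0.28 for CSTF1, 0.30 for CPSF3, 0.30 for PCF11, 0.31 for WDR82, 0.32 for SSU72, 0.34 for NUDT21, 0.34 for NCBP1, 0.42 for SRRT and 0.43 for CPSF6. Of the first 8 all but SYMPK had risen in A549, and all 12 of the others had fallen there. The same test passed for 47% of all genes. A549/cDDP was maintained in cisplatin and A549 was not, so line and earlier exposure cannot be told apart.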

How the results depend on the processing

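No call among the 175 of 396 pairs of member and comparison reversed under any alternative run, and 58 of the 175 ended in at least 1 fit without a library, which also has fewer samples. Calls lost were 22 with median ratio scaling, 24 with quantile normalization, 24 in the fit of the compared groups alone, 15 without the filter, 14 with the prior without trend and none with either pseudocount or the limit of 5 FPKM on the mean. The number of members called in cisplatin with the SCAT7 gapmer, 2, became 4 with that limit, 0 in the compared groups alone, and 1 each with median ratio scaling, quantile normalization, no filter and the prior without trend. For A549/cDDP the count of 0 became 1 with it and 1 with quantile normalization, and with the control gapmer 0 became 1 with it. Leaving out 1 library gave 10 to 15 for the control gapmer in solvent (21 with all), 0 to 4 for cisplatin with the SCAT7 gapmer, 0 to 1 for the interaction of gapmer and drug, 20 to 22 for cisplatin in A549 (24) and 18 to 20 for the SCAT7 gapmer in solvent (24). Where this left 1 library in a group, it is assumed to vary like the other groups.

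Replicate numbers did not pair the libraries: same-numbered libraries had deviations correlated between -0.073 and 0.113. With the replicate block 4 of the 175 calls were lost and the count for cisplatin with the SCAT7 gapmer became 1. With 2 libraries a group, changes under about 0.2 on the log2 scale are near the limit of what these fits hold. Some larger ones were also lost without 1 library. Their size reached 0.35 for cisplatin with the SCAT7 gapmer (CLP1) and 0.27 for the difference of responses between the lines.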

Other observations

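The balance of paired subunits is given as ratios of FPKM within a library, with no test. PCF11 stood at 1.67 and 1.64 times CLP1 in A549 in solvent and at 0.435 and 0.424 times in cisplatin. In A549/cDDP it was 1.13 and 1.26 times CLP1 in solvent and 1.13 and 1.22 times in cisplatin. With the SCAT7 gapmer it was 3.40 and 3.46 times CLP1 in solvent and 2.47 and 2.25 times in cisplatin, against 1.32 and 1.39, and 1.12 and 1.07, with the control gapmer. The ratio was thus lowest in A549 in cisplatin and highest with the SCAT7 gapmer in solvent. CSTF3 stood at 2.96 and 3.04 times CSTF1 in A549 in solvent, 7.42 and 8.21 times in A549 in cisplatin, and between 3.20 and 4.45 times in the 12 A549/cDDP libraries.

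LINC00294, the other gene that overlaps exons of CSTF3, was at 5.76 and 5.80 FPKM in A549 in solvent and 12.5 and 12.6 in cisplatin, and at 8.64 and 8.28 in solvent and 9.40 and 9.01 in cisplatin in A549/cDDP. It was chosen after its values were seen.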
